A study of Mus musculus with 12 samples.

Results

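The Hippo pathway and its YAP/TAZ target genes were followed in day 10 skin wounds of diabetic mice, as 32 named genes found among the 54232 genes of each count file. The genes were chosen by name, with earlier results of these data known. Of the 32, 21 encode parts of the pathway and 11 are genes that YAP and TAZ are known to switch on. Each was matched by its Ensembl identifier to a gene symbol, with Ctgf and Cyr61 listed under their newer symbols Ccn2 and Ccn1. All 32 exceeded the minimum of 15 counts summed over the libraries and were tested, with totals from 2215 counts (Fjx1) to 58164 counts (Mob1a).

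All 12 wounds came from male mice of the C57BLKS/J strain carrying Lepr (db/db), a mutation of the leptin receptor that causes obesity and diabetes, with a labelled age of 12.5 weeks. Every wound was a 6 mm full-thickness punch in the back skin, and every library therefore shares the genotype, the injury and the day of sampling. Wounds in the TD group (n = 5) were covered by Tegaderm, a transparent film dressing, alone. Wounds in the Strain group (n = 4) wore a patch labelled as inducing a strain of about 30%, and those in the No Strain group (n = 3) wore a patch labelled as inducing none. The study had no unwounded or non-diabetic skin among these groups, and total RNA was sequenced after selection of polyadenylated messages.

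Hippo signalling is a kinase cascade that restrains growth. The kinases MST1 and MST2 (genes Stk4 and Stk3), with the scaffold SAV1, activate LATS1 and LATS2, which act with MOB1 proteins to phosphorylate the co-activators YAP (Yap1) and TAZ (Wwtr1) and keep them out of the nucleus. Unphosphorylated YAP and TAZ enter the nucleus, bind TEAD transcription factors and switch on genes such as Ctgf, Cyr61 and Ankrd1. Stretch, stiff matrix and spread cell shape are known to favour nuclear YAP and TAZ, and in skin both act in keratinocytes and in fibroblasts during repair. Most of this control acts on the proteins, which RNA counts do not measure.

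TEAD factors recognise a short core, GGAATG or CATTCC on the other strand, and its letters are shown here because TEAD binding is the way YAP and TAZ are known to reach their targets. RefSeq windows on GRCm38.p6 were matched for 25 of the 32 members, and the 250 bases before each annotated start were searched on both strands. The core was present for 14 of these 25 members, 5 of 7 target genes and 9 of 18 pathway parts. Across all 27025 genes with such a window, 14.4% held it, and of all 32851 windows 12.6% did. The members were chosen for their place in this pathway, and a match of 6 letters is a description of the window and not a shown binding site. The windows of 7 members, all picked from those holding the core, are printed 5′ to 3′ with the core in capitals. First come Cyr61 and Ankrd1, in common use as YAP/TAZ readouts, with the upstream regulator Amotl2. Then come 4 members that were lower in at least 1 comparison with TD. Amot and Amotl1, also lower in at least 1 such comparison, and the targets F3 and Nt5e had windows without the core, not printed here.
Cyr61 chr3:145649986-145650235 (- strand): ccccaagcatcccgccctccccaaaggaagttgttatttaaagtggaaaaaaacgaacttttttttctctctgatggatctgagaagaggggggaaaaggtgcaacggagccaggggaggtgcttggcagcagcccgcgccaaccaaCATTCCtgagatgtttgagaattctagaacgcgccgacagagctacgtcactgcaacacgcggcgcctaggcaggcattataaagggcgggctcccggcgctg
Ankrd1 chr19:36119845-36120094 (- strand): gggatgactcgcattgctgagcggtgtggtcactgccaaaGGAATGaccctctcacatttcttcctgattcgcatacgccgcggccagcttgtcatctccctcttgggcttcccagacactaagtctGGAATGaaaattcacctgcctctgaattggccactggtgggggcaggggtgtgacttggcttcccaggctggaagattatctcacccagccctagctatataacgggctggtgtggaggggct
Amotl2 chr9:102717554-102717803 (+ strand): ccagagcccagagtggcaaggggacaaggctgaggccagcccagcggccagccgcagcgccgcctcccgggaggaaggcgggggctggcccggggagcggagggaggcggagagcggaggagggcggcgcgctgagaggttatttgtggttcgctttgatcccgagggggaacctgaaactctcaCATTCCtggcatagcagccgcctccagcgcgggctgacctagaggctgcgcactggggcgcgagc
Ptpn14 chr1:189728018-189728267 (+ strand): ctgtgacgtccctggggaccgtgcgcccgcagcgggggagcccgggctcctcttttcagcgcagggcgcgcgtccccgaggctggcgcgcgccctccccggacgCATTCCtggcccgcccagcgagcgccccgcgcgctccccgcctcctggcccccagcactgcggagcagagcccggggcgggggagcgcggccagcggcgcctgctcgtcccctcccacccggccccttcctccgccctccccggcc
Wwc2 chr8:47990545-47990794 (- strand): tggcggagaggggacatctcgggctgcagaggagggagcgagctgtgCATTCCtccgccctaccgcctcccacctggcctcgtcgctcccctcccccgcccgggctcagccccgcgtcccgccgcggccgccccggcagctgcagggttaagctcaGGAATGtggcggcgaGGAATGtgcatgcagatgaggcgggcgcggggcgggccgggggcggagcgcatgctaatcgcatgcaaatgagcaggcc
Yap1 chr9:8004597-8004846 (- strand): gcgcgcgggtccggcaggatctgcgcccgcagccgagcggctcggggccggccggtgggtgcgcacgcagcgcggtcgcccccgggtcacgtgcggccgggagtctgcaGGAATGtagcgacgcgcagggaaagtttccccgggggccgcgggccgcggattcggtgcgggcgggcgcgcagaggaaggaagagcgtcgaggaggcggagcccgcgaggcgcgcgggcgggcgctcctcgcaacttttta
Vgll3 chr16:65814939-65815188 (+ strand): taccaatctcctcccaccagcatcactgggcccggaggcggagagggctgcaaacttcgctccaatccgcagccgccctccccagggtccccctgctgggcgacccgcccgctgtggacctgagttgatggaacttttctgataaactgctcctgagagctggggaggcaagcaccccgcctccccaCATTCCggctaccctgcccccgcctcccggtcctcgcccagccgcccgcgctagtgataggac

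In these windows the core of Cyr61 began 103 bases before the annotated start, that of Amotl2 65 bases before and that of Ptpn14 146 bases before. Ankrd1 held it at 210 and 123 bases before the start, and Wwc2 at 203, 94 and 79 bases before. Yap1 held it at 141 bases and Vgll3 at 63 bases before the start. The RefSeq start used for Vgll3 lies before the first GENCODE M21 base of that gene (65815257), and for Ajuba, Nf2, Vgll3 and Vgll4 the bases just after a RefSeq start were found in no GENCODE M21 transcript of the gene. Among the members called in any comparison, 4 of 6 with a window held the core, against 10 of 19 not called. No window was matched for Tead1, Tead4, Stk3, Ctgf, Arhgef17, Fjx1 or Dlc1.

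Library totals ran from 20354677 to 25059371 counts, so a gene with 0 counts is limited to at most 0.147 CPM (the usual depth-scaled count, here relative to a TMM-scaled library total), which covers counting error only. Levels are given in CPM, and levels of different genes are compared only as CPM per kilobase of annotated exon. Markers of skin were high in every library: Krt14 of basal keratinocytes lay between 2149 and 6731 CPM and Col1a1 of fibroblasts between 9663 and 19347 CPM. Sample titles number the TD wounds 1 to 6 and the patch wounds 7 to 15, and if this is an order of handling, it cannot be told apart from the treatment. Among the patch wounds, the Strain numbers ran from 7 to 15 and the No Strain numbers from 11 to 13. The titles also carry a letter whose meaning is not given and which was unevenly spread, with 1 L and 4 R in TD, 3 L and 1 R in Strain and 2 L and 1 R in No Strain.

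Per kilobase, Mob1a was the most abundant pathway part, with 43.9 CPM per kb on average over the 12 libraries. It encodes an adaptor that lets LATS kinases be activated, and its close copy Mob1b had 3.60 CPM per kb. In TD replicates 1 to 5 Mob1a had 184, 212, 179, 208 and 222 CPM, in Strain replicates 1 to 4 206, 255, 204 and 210.2 CPM and in No Strain replicates 1 to 3 205, 209.9 and 229.9 CPM. The 3 groups overlapped. How reads shared by these copies were counted is not given in the sources used here, which leaves the split between them uncertain. Of the co-activators, Wwtr1 (TAZ) stood at 23.8 and Yap1 at 13.1 CPM per kb, and the lowest Wwtr1 library, at 18.5, lay above the highest Yap1 library, at 15.3. That order rests on the exon lengths, 4.779 kb for Wwtr1 and 9.257 kb for Yap1, as their CPM overlapped. The length used covers all annotated exons of a gene, and which transcripts were expressed was not tested. Among upstream regulators Amotl1 led with 19.0 CPM per kb, followed by Amotl2 with 16.8 and Nf2 with 13.6, whose ranges over libraries overlapped between neighbours. The TEAD genes came in the order Tead3 (7.73), Tead1 (6.47), Tead2 (4.71) and Tead4 (2.78 CPM per kb), and neighbours in this order overlapped in their ranges. In CPM Tead1 had the higher mean than Tead3 in every group, with 13.57 kb of exon against 6.714 kb. Vgll3 and Vgll4, whose proteins bind TEAD factors, had 9.15 and 9.05 CPM per kb.

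Target genes covered a wider range of levels per kilobase. Cyr61, encoding a secreted matrix protein, had 59.7 CPM per kb, F3, encoding tissue factor, the trigger of coagulation, had 34.0, and Ctgf, encoding connective tissue growth factor, had 19.5. Ankrd1, encoding an ankyrin repeat protein of stressed muscle and other cells, averaged 15.6 CPM per kb but ran from 3.10 to 37.9 between libraries. At the low end stood Fjx1 with 2.54 CPM per kb.

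**Figure D1:**
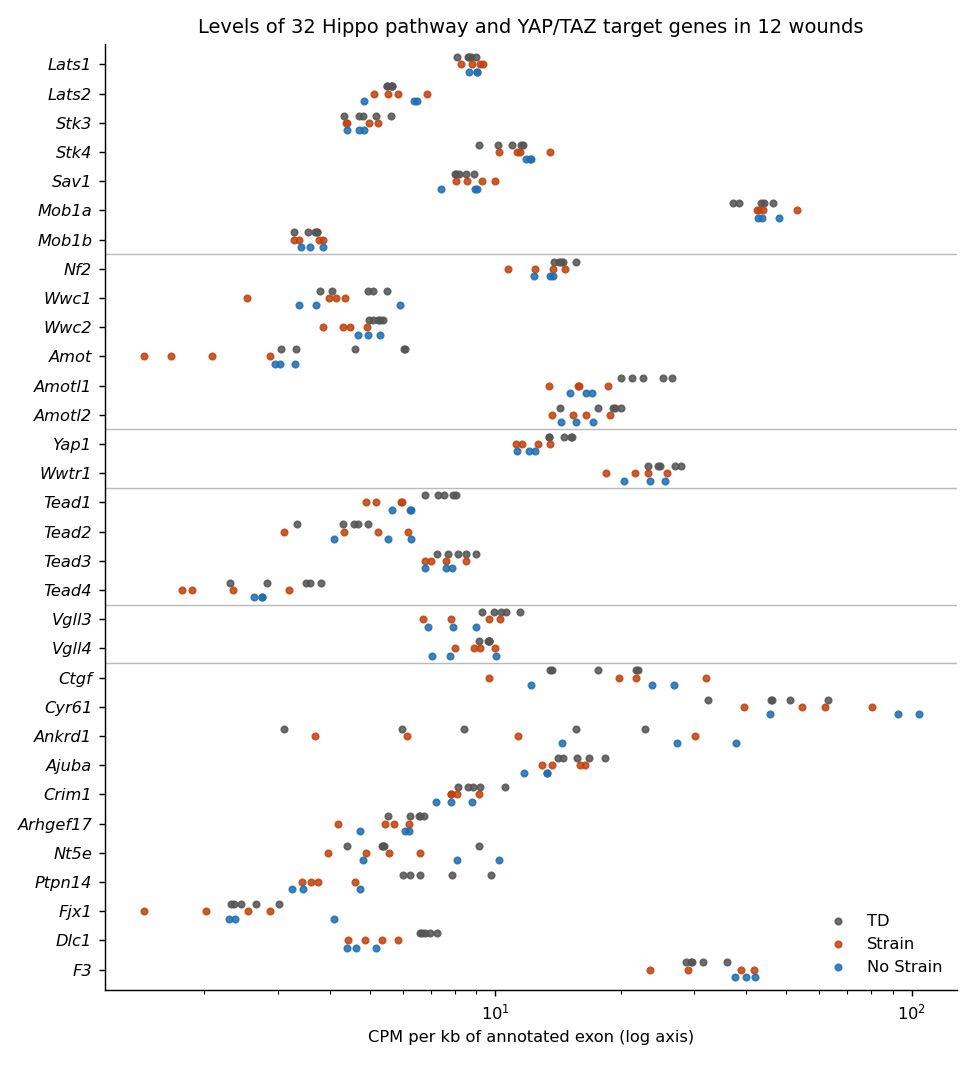
Level of each of the 32 genes in each of the 12 libraries, in CPM per kilobase of annotated exon on a log axis, with 1 point per library coloured by group and grey lines between roles (from top: kinases and scaffolds, upstream regulators, co-activators, TEAD factors, VGLL co-factors, targets). Most genes hold a narrow range, while Ankrd1 runs from 3.10 to 37.9 CPM per kb.

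The members also differed in how far libraries of 1 group lay from each other, measured as the SD of log2 CPM (prior count 2) within groups. The kinases and scaffolds were among the steadiest: Lats1 had an SD of 0.06, a value at or above that of only 2.76% of the 18618 genes tested. The 7 kinase and scaffold genes ran from that value up to 0.15 for Lats2. The most used YAP/TAZ readouts were the least steady, with 0.55 for Ctgf (percentile 87.3), 0.45 for Cyr61 (percentile 78.9) and 1.12 for Ankrd1 (percentile 98.7). This spread sets how small a difference the test could show for each gene, and for Ankrd1 it was present in TD wounds too.

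Strain and No Strain wounds were compared to ask what the strain adds to wearing a patch, and no member passed an adjusted p of 0.05. The edgeR quasi-likelihood test called 0 of 32 members, where it called 0% of all genes, and DESeq2 and limma-voom also called 0 of 32. Over all genes limma-voom called 0 and DESeq2 called 28 (8 higher and 20 lower). At an unadjusted p under 0.05 there were 2 members, Wwc2 and Amot, where 5.61% of all genes reached that level. The median log2 difference (Strain minus No Strain) was -0.02 over the members and 0.01 over all genes.

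Amot, encoding angiomotin, a junction protein that binds YAP and holds it outside the nucleus, gave the clearest separation of the patch groups. Its levels were 14.0, 12.0, 24.1 and 17.5 CPM in Strain replicates 1 to 4 and 25.6, 24.8 and 27.7 CPM in No Strain replicates 1 to 3. The groups did not overlap, as was the case for 1 of 32 members (0 higher and 1 lower) and 5.62% of all genes (2.85% higher and 2.77% lower). The log2 difference of -0.62 (SE 0.276, 95% interval -1.23 to -0.02) did not pass (edgeR adjusted p = 0.872). Wwc2, encoding a relative of the KIBRA scaffold that helps activate LATS kinases, differed by -0.18 (95% interval -0.35 to -0.01), again with an edgeR adjusted p of 0.872. Nt5e, encoding the CD73 ectonucleotidase, had the third smallest p, with a difference of -0.56 (95% interval -1.18 to 0.06) and the same edgeR adjusted p of 0.872.

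For the co-activators the intervals between the patch groups were narrow. The log2 difference was 0.04 for Yap1 (95% interval -0.14 to 0.21) and -0.05 for Wwtr1 (95% interval -0.30 to 0.19). Those of Lats1 (0.00, 95% interval -0.13 to 0.13) and Ptpn14 (0.01, 95% interval -0.39 to 0.42) also lay around 0. For the 3 readout genes the intervals were wide: -0.80 to 0.79 for Ctgf, -1.11 to 0.20 for Cyr61 and -2.66 to 0.57 for Ankrd1. Differences of these genes inside those bounds could not be resolved with 4 against 3 libraries.

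**Figure D2:**
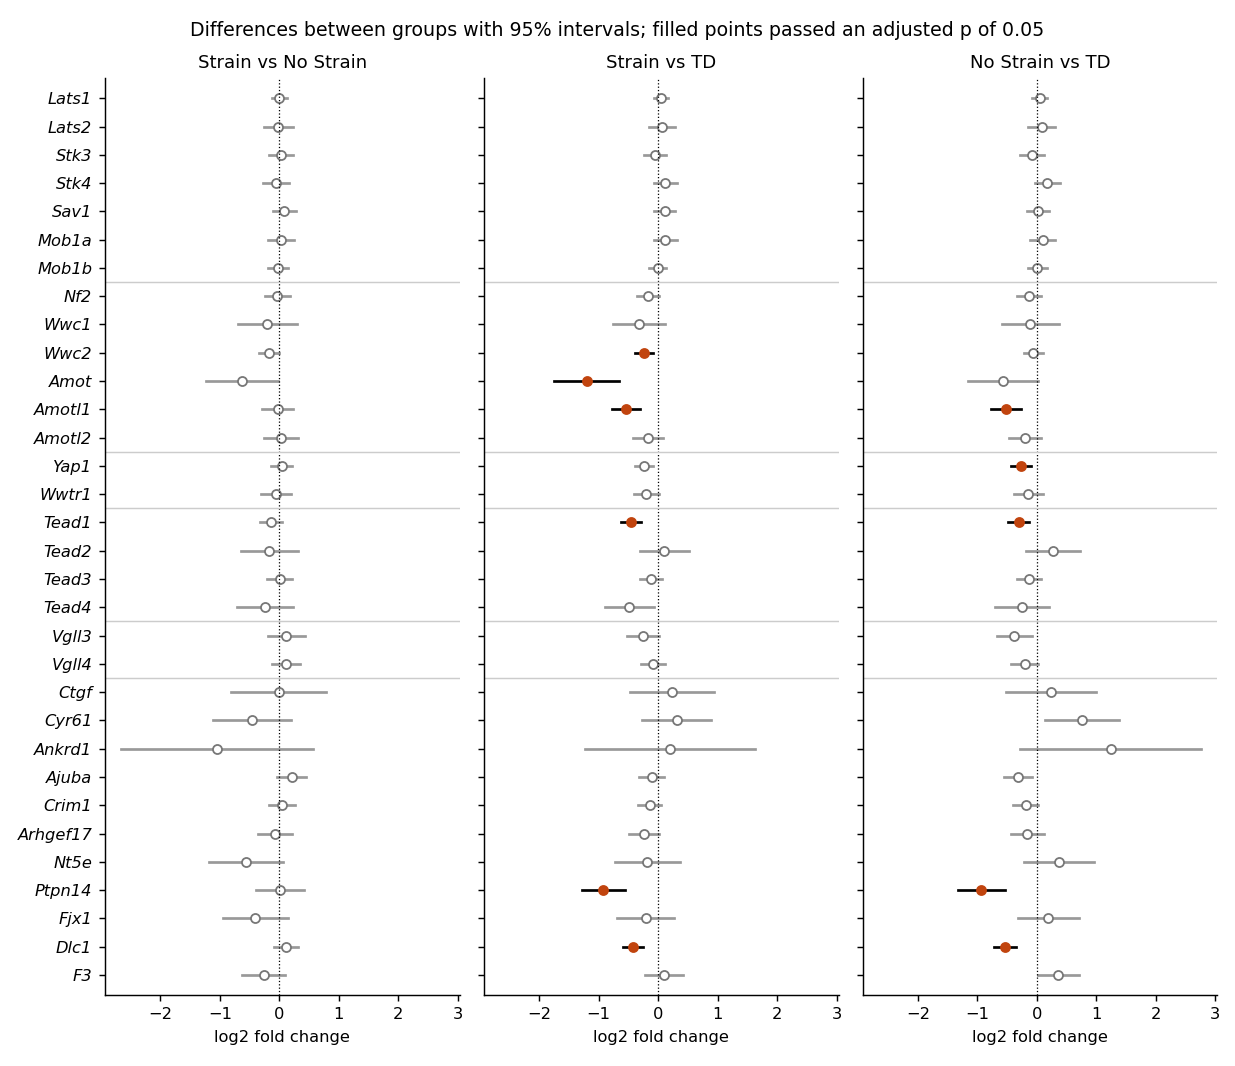
Log2 fold change (first group minus second) of each of the 32 genes in the 3 pairwise comparisons, with 95% intervals as bars and the genes grouped by role as in the plot of levels. Filled points passed an adjusted p of 0.05: none between the patches, 6 where Strain was compared with TD and 5 where No Strain was, all of them below 0.

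Both patch groups were then set against TD, the dressing alone. Here every member that passed was lower under the patches, in both parts of the list: the YAP-binding scaffolds Amot and Amotl1, the scaffold Wwc2, the factor Tead1, the co-factor Vgll3, Yap1 itself, and the targets Ptpn14 and Dlc1. Strain against TD called 6 of 32 members, or 18.8%, where 12.6% of all genes were called, and 6 were lower and 0 higher (6.41% and 6.2% of all genes). No Strain against TD called 5 of 32, or 15.6%, where 17.8% of all genes were called, and 5 were lower and 0 higher (8.4% and 9.35% of all genes). With both patch groups averaged, 7 of 32, or 21.9%, were called where 24.4% of all genes were, and 7 were lower and 0 higher (12.1% and 12.4% of all genes). The share of members called thus lay near that of all genes in the last 2 of these and above it in the first, a difference that was not tested. The 2 pairwise comparisons share the TD libraries, and in bulk tissue fewer cells of a type and less RNA per cell cannot be told apart.

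The median log2 change of the members was -0.16 for Strain, -0.12 for No Strain and -0.15 for both patches against TD, where the medians of all genes were 0.02, 0.00 and 0.01. At an unadjusted p under 0.05 there were 8 members in Strain against TD (29.5% of all genes), 9 in No Strain against TD (33.5%) and 12 in both patches against TD (38%). The library ranges were separate for 6 members in Strain against TD, all lower (14.6% of all genes, 7.15% lower and 7.47% higher). They were separate for 10 members in No Strain against TD, 8 lower and 2 higher (26.7% of all genes, 12.5% lower and 14.3% higher). For both patches against TD this held for 4 members, all lower (11% of all genes, 5.27% lower and 5.73% higher).

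The core kinases and scaffolds showed no call: 0 of 7 genes passed in any of the 4 edgeR comparisons, and 0 of 7 had an unadjusted p under 0.05. Of all genes, edgeR called 0% between the patches and 12.6%, 17.8% and 24.4% for Strain, No Strain and both patches against TD. At an unadjusted p under 0.05 these shares were 5.61%, 29.5%, 33.5% and 38%. Lats1, a kinase that phosphorylates YAP and TAZ, stood at 62.9 ± 2.41 CPM (SD, n = 5) in TD, 65.0 ± 3.52 (SD, n = 4) in Strain and 64.9 ± 1.72 (SD, n = 3) in No Strain. The log2 difference of Lats1 for both patches against TD was 0.05, with a 95% interval of -0.05 to 0.14. The intervals of the other 6 genes in that comparison lay between -0.23 (Stk3) and 0.32 (Stk4). Stk4, encoding MST1, was higher in all 3 No Strain libraries, 69.5 to 71.5 CPM, than in any TD library, 53.6 to 68.4 CPM, without passing (edgeR adjusted p = 0.236). Exon overlaps add uncertainty to a pair of these genes: 42.4% of Lats2 exon bases are shared with Gm49361 on the same strand, and 25.4% of Sav1 exon bases with Atl1 on the other.

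Among the 6 upstream regulators, all 6 estimates were below 0 in each comparison with TD, and 3 genes passed for Strain, 1 for No Strain and 2 for both patches (50%, 16.7% and 33.3%, where 12.6%, 17.8% and 24.4% of all genes were called). Amotl1 (ENSMUSG00000013076, chromosome 9, 14541966 to 14645056, minus strand, GRCm38), encoding an angiomotin relative of cell junctions, had 228, 214, 254, 268 and 202 CPM in TD replicates 1 to 5. It had 160, 136, 187 and 159 CPM in Strain replicates 1 to 4 and 152, 172 and 166 CPM in No Strain replicates 1 to 3. Every patch library lay below every TD library. The log2 change was -0.54 (SE 0.106, edgeR adjusted p = 0.0119) under Strain and -0.51 (SE 0.116, edgeR adjusted p = 0.0134) under No Strain. Without No Strain replicate 1 the second was -0.46 (edgeR adjusted p = 0.0573).

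Amot (ENSMUSG00000041688, chromosome X, 145446425 to 145505181, minus strand) had 38.7, 27.9, 51.1, 50.7 and 25.7 CPM in TD replicates 1 to 5, a wide range within the dressing group. All Strain libraries, given above, lay below the lowest TD library, while the No Strain libraries overlapped the lower TD values. Amot fell by 1.20 on the log2 scale under Strain (SE 0.249, edgeR adjusted p = 0.0146), and the No Strain value of -0.58 did not pass (edgeR adjusted p = 0.157). The direct test between the patches, above, did not pass either. With the title letter as a covariate the Amot value for Strain was -1.09 (edgeR adjusted p = 0.0502) and that for both patches was -0.77 (edgeR adjusted p = 0.0544).

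Wwc2 (ENSMUSG00000031563, chromosome 8, 47823959 to 47990924, minus strand) had 72.7, 72.1, 68.4, 74.2 and 70.2 CPM in TD replicates 1 to 5 and 67.7, 53.3, 59.3 and 61.8 CPM in Strain replicates 1 to 4. The groups did not overlap, and the log2 change was -0.24 (SE 0.0678, edgeR adjusted p = 0.0388). No Strain libraries had 64.5, 68.3 and 72.7 CPM and overlapped TD, with a change of -0.06 (edgeR adjusted p = 0.593). The Wwc2 call for Strain did not pass without any 1 of TD replicates 1, 2, 3, 4 or 5 or of Strain replicates 2, 3 or 4, with edgeR adjusted p from 0.0569 to 0.0908. It also missed the threshold without a filter on low counts (edgeR adjusted p = 0.0718), with only the groups compared in the fit (0.0529) and with the title letter as a covariate (0.0701), so the Wwc2 call is a weak one. Nf2, encoding the tumour suppressor merlin, had 99.0 ± 4.41 CPM (SD, n = 5) in TD, 88.0 ± 11.8 (SD, n = 4) in Strain and 90.2 ± 5.05 (SD, n = 3) in No Strain and passed in no comparison. Amotl2 and Wwc1 did not pass either, with log2 values for both patches of -0.19 (95% interval -0.40 to 0.03) and -0.21 (95% interval -0.59 to 0.17).

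Yap1 (ENSMUSG00000053110, chromosome 9, 7931999 to 8004596, minus strand) was modestly lower under the patches. TD replicates 1 to 5 had 140, 125, 141, 135 and 124 CPM, Strain replicates 1 to 4 had 117, 104, 125 and 107 CPM, and No Strain replicates 1 to 3 had 112, 115 and 104 CPM. Strain replicate 3 reached the lower TD libraries, and all No Strain libraries lay below TD. The log2 change was -0.27 for No Strain (SE 0.0768, edgeR adjusted p = 0.0331) and -0.25 for both patches (SE 0.0611, edgeR adjusted p = 0.0132). For Strain it was -0.23 (SE 0.0702, edgeR adjusted p = 0.0507), just outside the threshold, and DESeq2 called it (adjusted p = 0.0148). The No Strain call of Yap1 was lost without TD replicate 1, 3 or 4 or No Strain replicate 1 or 3, with edgeR adjusted p from 0.0583 to 0.128. The Strain value of Yap1 passed without TD replicate 5 (edgeR adjusted p = 0.0499) or Strain replicate 3 (edgeR adjusted p = 0.0218).

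Wwtr1 (ENSMUSG00000027803, chromosome 3, 57455649 to 57575910, minus strand), the TAZ gene, passed in no comparison. It had 129, 117, 119, 133 and 111 CPM in TD replicates 1 to 5, 111, 88.3, 103 and 123 CPM in Strain replicates 1 to 4 and 97.3, 122 and 112 CPM in No Strain replicates 1 to 3. The patch libraries overlapped TD, and the log2 value for both patches was -0.17 (95% interval -0.36 to 0.02, edgeR adjusted p = 0.180). That interval contains the Yap1 estimate, so a difference between the co-activators is not shown.

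Of the TEAD factors, Tead1 alone was called in the edgeR fit to all 12 libraries. Tead1 (ENSMUSG00000055320, chromosome 7, 112679318 to 112906807, plus strand) had 107, 98.7, 102, 109 and 92.0 CPM in TD replicates 1 to 5. It had 70.1, 66.3, 80.7 and 80.9 CPM in Strain replicates 1 to 4 and 76.7, 85.2 and 84.7 CPM in No Strain replicates 1 to 3. Every patch library lay below every TD library. The log2 change was -0.45 for Strain (SE 0.0766, edgeR adjusted p = 0.00768) and -0.31 for No Strain (SE 0.0836, edgeR adjusted p = 0.0276). Without TD replicate 1 or 4 or No Strain replicate 1 or 3 the No Strain value of Tead1 did not pass, with edgeR adjusted p from 0.0528 to 0.113. Tead4, the least abundant, had 11.6 ± 2.27 CPM (SD, n = 5) in TD, 8.26 ± 2.36 (SD, n = 4) in Strain and 9.76 ± 0.247 (SD, n = 3) in No Strain. It did not pass in that fit (edgeR adjusted p = 0.116 for Strain). Without Strain replicate 3, its highest Strain library (11.5 CPM), Tead4 was called lower for Strain and for both patches against TD. Tead3 had 60.5, 54.7, 57.1, 51.6 and 48.6 CPM in TD replicates 1 to 5, 57.1, 45.4, 51.0 and 47.1 CPM in Strain replicates 1 to 4 and 52.9, 51.1 and 45.6 CPM in No Strain replicates 1 to 3, with all groups overlapping. Tead2 and Tead3 differed from TD by 0.19 and -0.12 for both patches, with edgeR adjusted p of 0.439 and 0.244.

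The VGLL co-factors compete with YAP and TAZ for TEAD proteins. Vgll3 (ENSMUSG00000091243, chromosome 16, 65815257 to 65866368, plus strand) had 73.2, 65.9, 70.6, 81.3 and 75.3 CPM in TD replicates 1 to 5, 55.7, 47.6, 72.7 and 68.7 CPM in Strain replicates 1 to 4 and 48.9, 64.0 and 56.3 CPM in No Strain replicates 1 to 3. Strain replicates 3 and 4 lay within the TD range and the other patch libraries below it. The log2 change for both patches, -0.32 (SE 0.107), passed narrowly (edgeR adjusted p = 0.0492), and neither pairwise value passed (0.185 for Strain and 0.0737 for No Strain, edgeR adjusted p). The Vgll3 call stood in 3 of 12 fits that each left out 1 library, and without any 1 of TD replicates 1 to 5, Strain replicates 1 or 2, or No Strain replicates 1 or 3 its edgeR adjusted p ran from 0.0574 to 0.116. Vgll4 had 51.5 ± 1.18 CPM (SD, n = 5) in TD, 48.6 ± 4.38 (SD, n = 4) in Strain and 44.8 ± 8.46 (SD, n = 3) in No Strain and passed in no comparison.

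**Figure D3:**
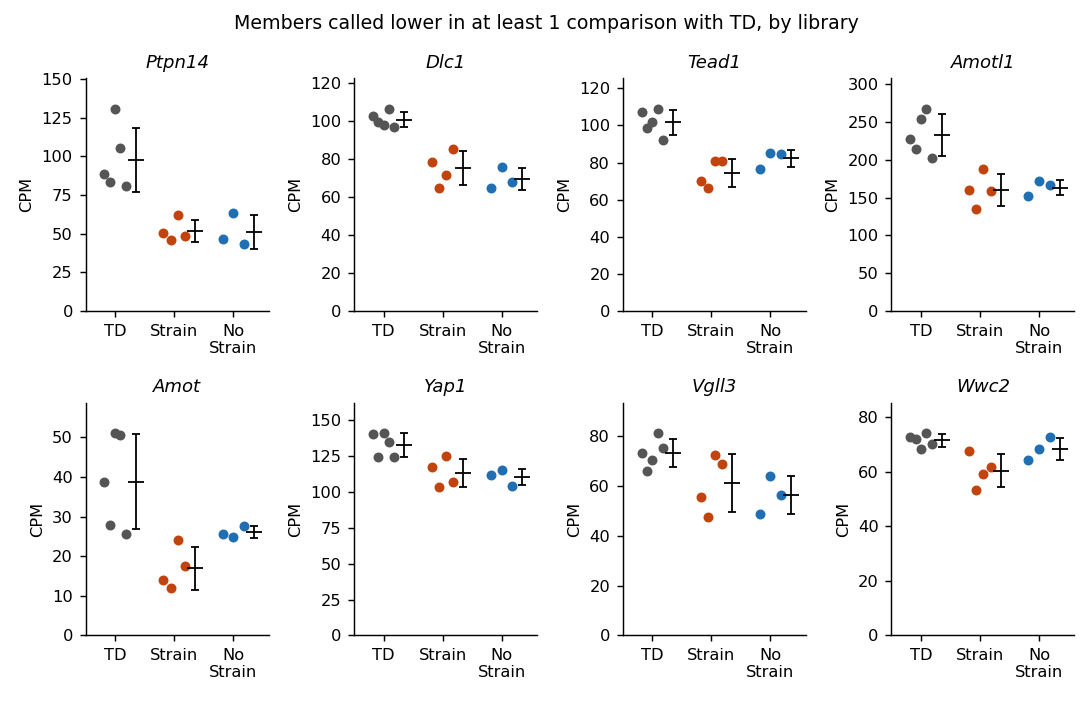
CPM in each library for the 8 genes called in at least 1 comparison with TD, with 1 point per library and the mean ± SD of each group beside the points, on axes that start at 0. For Ptpn14, Dlc1, Tead1 and Amotl1 every patch library lies below every TD library, while Amot, Yap1, Vgll3 and Wwc2 overlap in part.

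Estimates of the 11 target genes lay on both sides of 0 in each comparison with TD. Against TD, 2 of 11 (18.2%) were called in each comparison, Ptpn14 and Dlc1, both lower. Of all genes, 12.6% were called for Strain, 17.8% for No Strain and 24.4% for both patches. The median log2 change of the 11 targets was -0.14 for Strain and 0.19 for No Strain, where all genes had 0.02 and 0.00. Ptpn14 (ENSMUSG00000026604, chromosome 1, 189728268 to 189876695, plus strand) encodes a tyrosine phosphatase that binds YAP and limits its activity. It had 88.2, 83.5, 131, 105 and 80.5 CPM in TD replicates 1 to 5, 50.3, 46.1, 61.7 and 48.3 CPM in Strain replicates 1 to 4 and 46.4, 63.6 and 43.5 CPM in No Strain replicates 1 to 3. Every patch library lay below every TD library. Ptpn14 fell by 0.92 on the log2 scale under Strain (SE 0.165, edgeR adjusted p = 0.00908) and by 0.93 under No Strain (SE 0.182, edgeR adjusted p = 0.00783), or by 47.1% and 47.6%.

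Dlc1 (ENSMUSG00000031523, chromosome 8, 36567751 to 36953143, minus strand) encodes a protein found at focal adhesions. It had 103, 99.8, 98.1, 107 and 96.7 CPM in TD replicates 1 to 5, 78.5, 65.0, 71.6 and 85.6 CPM in Strain replicates 1 to 4 and 64.7, 75.8 and 68.2 CPM in No Strain replicates 1 to 3. No patch library reached the narrow TD range. The log2 change was -0.42 for Strain (SE 0.0794, edgeR adjusted p = 0.0103) and -0.53 for No Strain (SE 0.0874, edgeR adjusted p = 0.00392). Ptpn14 and Dlc1 stayed called in all 12 fits that each left out 1 library, in each comparison with TD.

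The 3 genes most used as readouts of YAP and TAZ had estimates above 0 against TD, and none passed. Ctgf (ENSMUSG00000019997, chromosome 10, 24595442 to 24598683, plus strand) had 50.4, 38.6, 62.8, 62.2 and 39.1 CPM in TD replicates 1 to 5, 62.4, 91.4, 56.8 and 27.6 CPM in Strain replicates 1 to 4 and 34.9, 67.9 and 76.7 CPM in No Strain replicates 1 to 3. Strain held both the highest and the lowest library. Its log2 values were 0.23 for Strain and 0.24 for No Strain, with an edgeR adjusted p of 0.668 in each. Of its exon bases, 23.2% overlap Gm15270 on the other strand, and whether counting used strand is not given in the sources used here.

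Cyr61 (ENSMUSG00000028195, chromosome 3, 145646976 to 145649981, minus strand) had 127, 93.2, 92.6, 103 and 65.4 CPM in TD replicates 1 to 5 and 110, 162, 125 and 79.8 CPM in Strain replicates 1 to 4. In No Strain replicates 1 to 3 it had 92.0, 210 and 187 CPM. No Strain replicates 2 and 3 lay above all other libraries, and replicate 1 lay within TD. The log2 value for No Strain was 0.76 (SE 0.283, 95% interval 0.14 to 1.38, edgeR adjusted p = 0.0845). It passed with DESeq2 (adjusted p = 0.0461) and without No Strain replicate 1 (1.05, edgeR adjusted p = 0.0330), so the Cyr61 call rests on that choice. For Strain it was 0.31 (edgeR adjusted p = 0.467).

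Ankrd1 (ENSMUSG00000024803, chromosome 19, 36111961 to 36120099, minus strand) had 24.3, 17.2, 45.1, 66.1 and 8.94 CPM in TD replicates 1 to 5. It had 17.7, 10.6, 87.0 and 32.6 CPM in Strain replicates 1 to 4 and 41.8, 78.9 and 109 CPM in No Strain replicates 1 to 3. The groups overlapped, and the spread within TD alone covered a large part of the whole range. The log2 values were 0.20 for Strain (95% interval -1.24 to 1.63, edgeR adjusted p = 0.873) and 1.24 for No Strain (95% interval -0.28 to 2.76, edgeR adjusted p = 0.237). Without Strain replicate 3 the Strain value of Ankrd1 was -0.68, so its direction there rests on that library.

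The remaining 6 targets passed in none of the 4 comparisons of the edgeR fit to all 12 libraries, and 3 of them passed under other settings. Nt5e had 78.8, 46.1, 46.5, 45.9 and 37.9 CPM in TD replicates 1 to 5, 56.5, 42.0, 34.0 and 47.7 CPM in Strain replicates 1 to 4 and 41.4, 69.8 and 87.7 CPM in No Strain replicates 1 to 3. TD replicate 1 and No Strain replicates 2 and 3 were its high libraries. With the title letter as a covariate the Nt5e value for Strain against TD was -0.57 (edgeR adjusted p = 0.0412), and without TD replicate 1 it was 0.029. F3 was higher in every No Strain library (94.9 to 106 CPM) than in any TD library (72.6 to 91.1 CPM), a log2 difference of 0.36 that did not pass (edgeR adjusted p = 0.136) but was called higher when only those groups entered the fit. Ajuba, encoding a LIM protein that inhibits LATS kinases, was lower in every No Strain library (42.7 to 48.6 CPM) than in any TD library (51.4 to 67.0 CPM), by -0.32 on the log2 scale (edgeR adjusted p = 0.0591). Ajuba was called lower there with DESeq2, with scaling by library totals alone and without TD replicate 2. Crim1, Arhgef17 and Fjx1 had log2 values for both patches of -0.17, -0.20 and -0.01, with edgeR adjusted p of 0.129, 0.169 and 0.978.

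**Figure D4:**
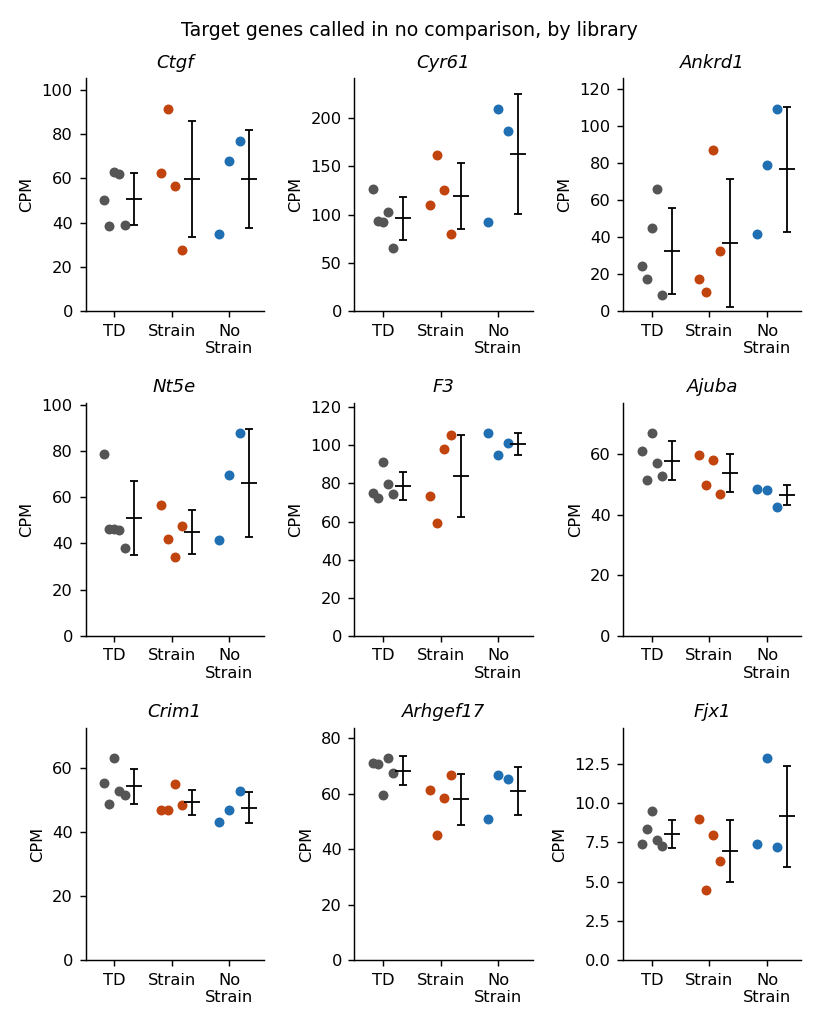
CPM in each library for the 9 target genes called in no comparison, with 1 point per library and the mean ± SD of each group beside the points, on axes that start at 0. Ctgf, Cyr61, Ankrd1 and Nt5e spread widely within groups, with Ankrd1 from 8.94 to 66.1 CPM within TD, while Crim1 and Arhgef17 hold narrow ranges.

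Further genes of the pathway were taken from a list of 48, of which 47 were tested. For both patches against TD, 1 was higher and 1 lower (4.26% called, where 24.4% of all genes were), and the median log2 change was -0.02. Map4k4, encoding a kinase that can activate LATS beside MST1 and MST2, had 305 ± 14.8 CPM (SD, n = 5) in TD, 356 ± 36.3 (SD, n = 4) in Strain and 414 ± 69.4 (SD, n = 3) in No Strain. It rose by 0.33 on the log2 scale for both patches (SE 0.0870, edgeR adjusted p = 0.0181). Btrc, encoding an F-box protein that marks phosphorylated YAP for degradation, changed by -0.17 (SE 0.0544, edgeR adjusted p = 0.0377), from 21.3 ± 0.605 CPM (SD, n = 5) in TD to 19.7 ± 0.753 (SD, n = 4) in Strain and 18.1 ± 1.43 (SD, n = 3) in No Strain. Under Strain alone 0 were higher and 2 lower, Ywhag and Vgll2 (4.26% called, against 12.6% of all genes). Under No Strain alone Map4k4 was higher and Btrc lower (4.26% called, against 17.8% of all genes). Between the patches edgeR called 0 of 47, with 2 at an unadjusted p under 0.05 (0% and 5.61% of all genes).

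A list of 22 other genes reported as YAP/TAZ targets held calls in both directions, as all genes did. For both patches against TD, 4 were higher and 3 lower (31.8% called, where 24.4% of all genes were, 12.4% higher and 12.1% lower). The difference between these shares was not tested, and the list was chosen with earlier results of these data known. The median log2 change was 0.04 for the list and 0.01 for all genes. The higher genes with the smallest p were Nuak2, a kinase (0.56, edgeR adjusted p = 0.0155), Areg, the growth factor amphiregulin (1.30, edgeR adjusted p = 0.0172), and Gadd45a, a stress response gene (0.45, edgeR adjusted p = 0.0199). The lower genes were Nuak1, a kinase related to Nuak2 (-0.63, edgeR adjusted p = 0.00910), Igfbp3, an insulin-like growth factor binding protein (-0.53, edgeR adjusted p = 0.0353), and Ccdc80, a matrix protein (-0.49, edgeR adjusted p = 0.0382). Nuak1 had 68.5 ± 7.27 CPM (SD, n = 5) in TD, 41.5 ± 9.69 (SD, n = 4) in Strain and 47.0 ± 9.23 (SD, n = 3) in No Strain. Areg was a low gene, with 2.36 ± 0.829 CPM (SD, n = 5) in TD, 5.09 ± 2.54 (SD, n = 4) in Strain and 6.71 ± 2.21 (SD, n = 3) in No Strain.

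Levels of cell type markers were set beside the same comparisons. Marker calls below are for both patches against TD, where 12.4% of all genes were called higher and 12.1% lower. The summed level of 16 skeletal muscle genes lay between 7116 and 17209 CPM in TD, 3196 and 6027 CPM in Strain, and 4567 and 9940 CPM in No Strain, and for both patches 10 of the 15 tested genes were lower and 0 higher. The 10 adipocyte genes summed to 1169 to 2682 CPM in TD, 818 to 1258 CPM in Strain and 592 to 900.2 CPM in No Strain, with 8 of 10 lower. The 11 neutrophil genes summed to 513 to 1751 CPM in TD, 1010 to 9131 CPM in Strain and 2615 to 5618 CPM in No Strain, with 11 of 11 higher. In Strain replicates 1 to 4 the neutrophil sums were 9131, 6349, 1010 and 1807 CPM, so that group was uneven. The 11 endothelial genes summed to 533 to 663 CPM in TD, 673 to 957 CPM in Strain and 738 to 856 CPM in No Strain, with 8 of 11 higher. Of all these genes, 1 muscle gene (Tnnc2) and 1 neutrophil gene (Camp) had 0 counts in at least 1 library, and no other did.

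Fibroblast genes did not pass for both patches in the same test (0 of 11 by edgeR, with 2 at an unadjusted p under 0.05), with sums of 43069 to 67576 CPM in TD, 44022 to 75007 CPM in Strain and 55407 to 69439 CPM in No Strain. Genes of basal and wound-edge keratinocytes summed to 8305 to 11234 CPM in TD, 8055 to 21230 CPM in Strain and 9125 to 19191 CPM in No Strain, with 2 of 11 higher and 3 lower. Differentiated keratinocyte genes ran from 5956 to 9416 CPM in TD, 6766 to 9173 CPM in Strain and 2148 to 10537 CPM in No Strain, with 0 of 9 higher and 1 lower. Smooth muscle and pericyte genes ran from 1145 to 1679 CPM in TD, 913 to 1701 CPM in Strain and 1366 to 1875 CPM in No Strain, with 1 of 10 higher and 1 lower. Macrophage genes ran from 1302 to 2834 CPM in TD, 2407 to 3161 CPM in Strain and 2424 to 3462 CPM in No Strain, with 3 of 11 higher and 0 lower.

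Within TD, where no patch was worn, the library with the least muscle signal (replicate 5, 7116 CPM) also had the lowest Ptpn14, Amot, Amotl1, Tead1, Yap1 and Dlc1 of that group. The library with the most muscle signal (replicate 3, 17209 CPM) had the highest Ptpn14, Amot and Yap1 but not the highest Amotl1, Tead1 or Dlc1. The other 2 called genes did not follow this order: Wwc2 was lowest in replicate 3 (68.4 CPM), and Vgll3 was lowest in replicate 2 (65.9 CPM) and second highest in replicate 5 (75.3 CPM). Replicates 5 and 3 also had the lowest and the highest adipocyte sums of TD, 1169 and 2682 CPM. Replicate 5 was also the lowest TD library for members not called, such as Lats1 (59.1 CPM), Wwtr1 (111 CPM), Tead3 (48.6 CPM) and Ankrd1 (8.94 CPM). Mob1a was highest there (222 CPM), and Stk4 was not lowest there (67.5 CPM). Whether any of these genes follow muscle content was not tested.

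The comparisons were refitted with the mean log2 level of 1 marker list as a covariate. With the muscle list edgeR called 0 members under Strain (against 6), 1 under No Strain (Dlc1, against 5) and 0 under both patches (against 7), each compared with TD. The calls over all 18618 genes came to 1, 457 and 22 in the same order. With the adipocyte list 0, 0 and 0 members were called, and 42, 54 and 106 genes in all. With the endothelial list 0, 1 (Dlc1) and 1 (Dlc1) members were called, and 113, 374 and 352 genes in all. The neutrophil list left 0 calls in each comparison, among members and among all genes. These lists differ between the groups themselves, so treatment and tissue composition cannot be fully told apart by such a fit. Estimates for both patches moved unequally: Dlc1 went from -0.48 to -0.61 with the muscle covariate and -0.43 with the adipocyte covariate, and Ptpn14 from -0.93 to -0.74 and -0.23. Tead1 went from -0.38 to -0.28 and -0.21 under the same covariates. Amot went from -0.89 to -0.13 and 0.03, and Yap1 from -0.25 to -0.18 and 0.03.

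**Figure D5:**
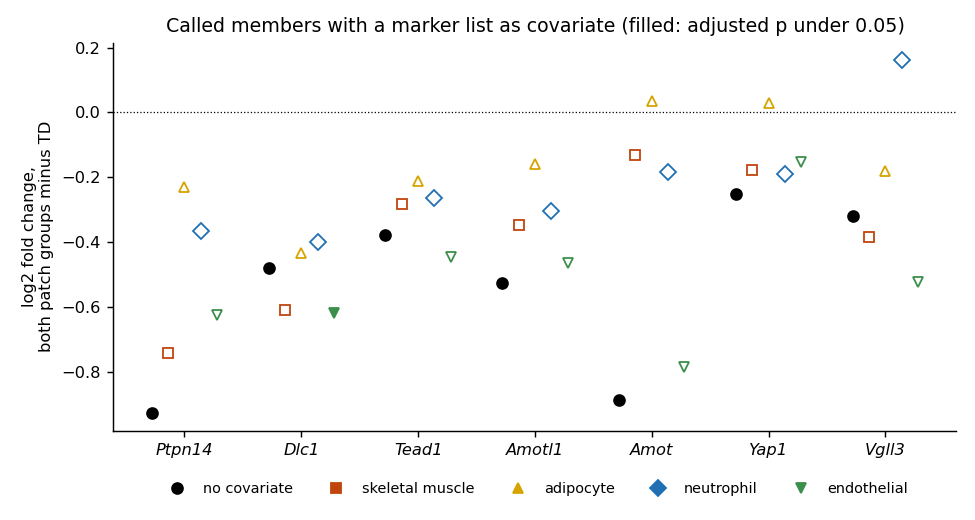
Log2 fold change (both patch groups minus TD) of the 7 called genes without a covariate and with the mean level of 1 marker list as covariate, with filled symbols for an adjusted p under 0.05 and open symbols otherwise. All 7 are filled without a covariate, and with one only Dlc1 under the endothelial list is filled. Dlc1 stays between -0.40 and -0.62, while Amot moves from -0.89 to near 0 under the adipocyte list.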

How the data were processed

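Per the submitters' processing notes, the authors' tools included bcl2fastq 2.17, FastQC, cutadapt, STAR, featureCounts and DESeq2, with the build GRCm38, and the roles of these tools, the annotation release, strand setting and rule for shared reads are not given in the sources used here. Each deposited file holds raw counts per Ensembl gene of 1 library, as the headers show. Of 54232 identifiers, 54165 matched a symbol in GENCODE M21 (GRCm38), which also gave coordinates and exon lengths.

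Genes were kept by filterByExpr (minimum count 10, minimum total 15), leaving 18618, and all 12 libraries entered 1 edgeR 4.0.16 robust quasi-likelihood fit with scaling by trimmed means (TMM) in R 4.3.3. P-values were adjusted by Benjamini-Hochberg over all genes, at 0.05. Groups follow the group label; title numbers are not shared between groups and pair nothing. The series text counts mice, so each library was taken as 1 mouse. Chi-square per degree of freedom between replicates of the same group was 9.53 or more, so no library was a copy of another in its group. Libraries of different groups were not compared in this way. Genes in the text are the 32 members, with values per library for those called, for Yap1, Wwtr1, Ctgf, Cyr61, Ankrd1 for the 3 smallest p between the patches and for the highest gene per kilobase of each role, and up to 3 per direction of each further list. The members and lists were chosen with earlier results of these data known. Alternatives used edgeR, DESeq2 1.42.0 and limma 3.58.1 (voom); covariates for adipocyte, neutrophil and endothelial lists were added after seeing the data.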

Additional observations from a re-analysis of the deposited data

Results flagged for a closer look

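Log2 CPM of the 32 genes was screened for a library set apart from its group, over TD and Strain and 64 group values in all, of which 4 stood apart where chance gives about 1 in 20, or 3.2. Strain replicate 2 had the highest Mob1a of its group, 7.99 against 7.72 in the next library. Strain replicate 4 had the lowest Wwc1, 3.66 against 4.31. TD replicate 1 had the lowest Vgll4, 5.63 against 5.70, and the highest Nt5e, 6.30 against 5.54. None of these 4 genes passed in the 4 comparisons of the edgeR fit to all libraries. Under other settings Nt5e passed for Strain against TD with the title letter as a covariate, and Vgll4 for No Strain and for both patches against TD without No Strain replicate 2. The 3 No Strain libraries were too few to screen.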

How the results depend on the processing

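No paired analysis was possible because the sample titles share no number between groups. The count of 0 members between Strain and No Strain held in every alternative run. For Strain against TD the 6 calls became 0 with the muscle, adipocyte, neutrophil or endothelial covariate and 3 with a minimum log2 change of 0.5. The title letter gave 5, 4 of them shared, with Amot and Wwc2 lost and Nt5e gained. Over all 18618 genes the letter took the calls for Strain against TD from 2349 to 798. Wwc2 was also lost without a filter on low counts and with only the groups compared in the fit. For No Strain against TD the 5 became 8 with DESeq2 (7 lower, and Cyr61 higher), 7 with only the groups compared (6 lower, and F3 higher), 3 without a filter on low counts, 3 with the title letter (L or R) as covariate, 1 with the muscle or endothelial covariate, 0 with the adipocyte or neutrophil covariate, 3 with the minimum log2 change of 0.5 and 3 to 6 when 1 library was left out. For both patches the 7 became 4 with the title letter, 0 with the muscle, adipocyte or neutrophil covariate, 1 with the endothelial covariate and 3 with the minimum change. With libraries scaled by totals alone, 38.1% of all calls for No Strain against TD were higher (52.7% with TMM), and 40.1% for both patches (50.5%), while the called members of each comparison stayed called. Over all genes the calls for No Strain against TD went from 3305 to 2145 with the title letter and to 4372 with DESeq2. They were 3375 of 18157 with only the groups compared, 2381 of 35687 without a filter, and 1505 to 3415 with 1 library left out. For both patches the title letter took all-gene calls from 4552 to 2589. Why these counts moved was not tested.

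Of 216 values of called members with 1 library left out, 189 stayed called and 0 changed sign. Signs changed in 47 of 1287 alternative values, 4 of them for called members, and the cause was not tested.
With the adipocyte covariate the log2 values were 0.57 for Amot (No Strain against TD), 0.035 for Amot and 0.030 for Yap1 (both patches), 0.078 for Yap1 and 0.0056 for Wwtr1 (No Strain against TD), and -0.10 for Yap1 and -0.31 for Ptpn14 between the patches. With the neutrophil covariate they were 0.22 for Amot (No Strain against TD), 0.16 for Vgll3 in each comparison with TD, and -0.11 for Ptpn14 and 0.28 for Ctgf between the patches. For Strain, No Strain and both patches against TD, it gave -1.03, -1.31 and -1.17 for Ctgf and -0.81, -0.64 and -0.72 for Cyr61, and for Nt5e -1.47 (No Strain) and -1.54 (both). With the muscle covariate they were 0.0052 for Amot (No Strain against TD) and 0.063 for Amotl1 and 0.15 for Ctgf between the patches. For Nt5e (both patches) the endothelial covariate gave -0.0052 and the title letter -0.28. Between the patches the title letter gave 0.0077 for Ctgf, and totals alone 0.021 for Amotl1 and 0.039 for Ctgf.

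With 1 library left out, values between the patches ran from -0.12 to 0.042 for Amotl1, -0.023 to 0.072 for Yap1, -0.10 to 0.20 for Ptpn14, -0.15 to 0.020 for Wwtr1 and -0.30 to 0.23 for Ctgf. For Strain against TD they ran from -0.057 to 0.47 for Ctgf, -0.68 to 0.63 for Ankrd1 and -0.31 to 0.029 for Nt5e, and for both patches from -0.029 to 0.31 for Nt5e.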
